A study of Homo sapiens with 2 samples.

Results

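HTO2+HTO5 is a population of 507 tumour cells recognised by the 2 antibody-bound barcodes (hashtags) that each of its cells carried, and it held the lowest level of a tumour necrosis factor (TNF)-type programme among the 5 populations tagged with HTO2. A barcode belonged to it when HTO2 and HTO5 were its 2 highest of hashtags HTO2 to HTO9, the second of them had 20 counts or more and at least 4 times the third, 500 genes or more were detected, and at most 20% of its transcript counts (UMIs, unique molecular identifiers) came from mitochondrial genes. Of 9083 barcodes in the library, 3611 passed the gene and mitochondrial limits, 2994 of these had a pair, and 507 carried HTO2+HTO5. The population and the 5 populations it is set against here (HTO3+HTO5, HTO3+HTO7, HTO3+HTO9, HTO4+HTO6 and HTO4+HTO7, called quiet) were selected on measured levels of ICAM1, SOD2, LTB and genes like them. All differences between them are therefore descriptions, and no test was run on them.

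The cells came from OVCAR5, an established human ovarian carcinoma line, carrying a sensor of interferon gamma (IFNy-sensing reporter) and sorted as CFP+ bystander cells after growth as tumours in NSG-B2m-/- mice. The gene expression library pooled 13 tumours. Per its description, 5 tumours were exposed for 6 h, 3 of them to 10 ng/ml TNFa alone and 2 to 10 ng/ml TNFa and 100 ng/ml IFNy together. Another 3 were exposed to 100 ng/ml IFNy, 2 for 24 h and 1 for 48 h, and 5 were unexposed in vivo (2 at 6 h, 2 at 24 h and 1 at 48 h). The labels do not tie hashtag pairs to tumours, so the condition of HTO2+HTO5 is not known. The treatment fields of both libraries name single conditions, an unstimulated culture for one and TNFa for the other, which is at odds with the pool. All cells shared the line, the reporter, the host strain and the library, and each population counts as 1 sample with no replicate.

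TNF binds its receptors on epithelial cells and releases the transcription factor NF-kB from its inhibitors. NF-kB then induces those same inhibitors within a short time, along with chemokines, adhesion molecules and, more slowly, secreted acute-phase proteins. Epithelial cells can carry such a response with very different strength from cell to cell.

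HTO2+HTO5 was the largest of 13 pair populations, with 1287 barcodes before the filter against 275 to 877 in the others, and 39.4% of its barcodes passed. Its cells held 5058403 gene UMIs, with a median of 8630 UMIs, 2910 genes and 15.04% mitochondrial UMIs per cell. The quiet populations had 139 to 278 cells, 1306049 to 2911673 UMIs, medians of 8018 to 9450 UMIs per cell and 14.4% to 15.4% mitochondrial UMIs. At the edges of the rule, the members reached down to a ratio of 4 of the second to the third hashtag, and 79 passing barcodes with the same 2 highest hashtags were left out, the nearest at 3.96. Members reached 19.99% mitochondrial UMIs, and the nearest of 773 barcodes over that limit had 20.05%. All 10 epithelial markers looked for had a UMI in HTO2+HTO5, at a sum of 5400 counts per 1000000 UMIs against 5518 to 7613 in the quiet populations. KRT18 (2653) and KRT8 (1365) were the largest parts of that sum, whereas CDH1 had only 7 UMIs in 6 cells and MUC1 29 UMIs in 24 cells. ELF3 stood at 84.4, below the quiet range of 110 to 145. Summed fibroblast markers stood at 8.90 CPM (quiet 1.49 to 39.0), endothelial markers at 6.33 (3.83 to 6.87), macrophage or monocyte markers at 51.4 (50.1 to 64.9), T cell markers at 8.50 (3.83 to 11.9), neutrophil markers at 0.988 (0 to 0.766), B cell markers at 0.395 (0 to 1.47) and erythroid markers at 0.198 (0 in each). PECAM1 was the only endothelial marker of 8 with a UMI, 7 of 10 fibroblast markers had 1, and CD3D, CD3E, CD3G, MS4A1, CSF1R, DCN, VWF and CDH5 were at 0 in HTO2+HTO5.

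The 3 marker genes stood between the quiet and the strong populations. ICAM1 (chr19:10270835-10286615, plus strand), which encodes an adhesion molecule for leukocytes, reached 294 counts per 1000000 UMIs of the population (CPM) in HTO2+HTO5 (95% Poisson interval 279 to 309). In the quiet populations it stood at 71.2 in HTO3+HTO5, 27.2 in HTO3+HTO7, 66.3 in HTO3+HTO9, 49.2 in HTO4+HTO6 and 34.7 in HTO4+HTO7. The highest quiet value was thus 4.13 times lower (95% interval of the ratio 3.35 to 5.15), while HTO2+HTO6 and HTO2+HTO7, the strong populations used here for reference, reached 903 and 882. Intervals here and below cover counting error only, and coordinates are those of GENCODE 29 on GRCh38.

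SOD2 (chr6:159669057-159745186, minus strand), the mitochondrial superoxide dismutase and a classical NF-kB target, stood at 314 CPM in HTO2+HTO5. The quiet values were 78.1, 50.8, 87.9, 47.3 and 60.4 in the same order, and the ratio to the highest was 3.57 (2.96 to 4.35). LTB (chr6:31580525-31582522, minus strand), which encodes lymphotoxin beta, a membrane-bound cytokine of the TNF family, stood at 507 against 28.3, 20.6, 78.2, 30.1 and 33.7. Its ratio of 6.49 (5.34 to 7.96) rests on HTO3+HTO9, and without that population it was 15.1. HTO2+HTO6 and HTO2+HTO7 reached 1460 and 1120 for SOD2 and 2046 and 1643 for LTB. In all 3 genes HTO2+HTO5 lay above each of the 8 populations without HTO2 and below each of the other 4 with it. Among the 8, HTO4+HTO9 came nearest for ICAM1 (212) and HTO4+HTO8 for SOD2 (150). All 5 quiet populations lack HTO2, so the hashtag and the response cannot be told apart in this comparison.

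**Figure D1:**
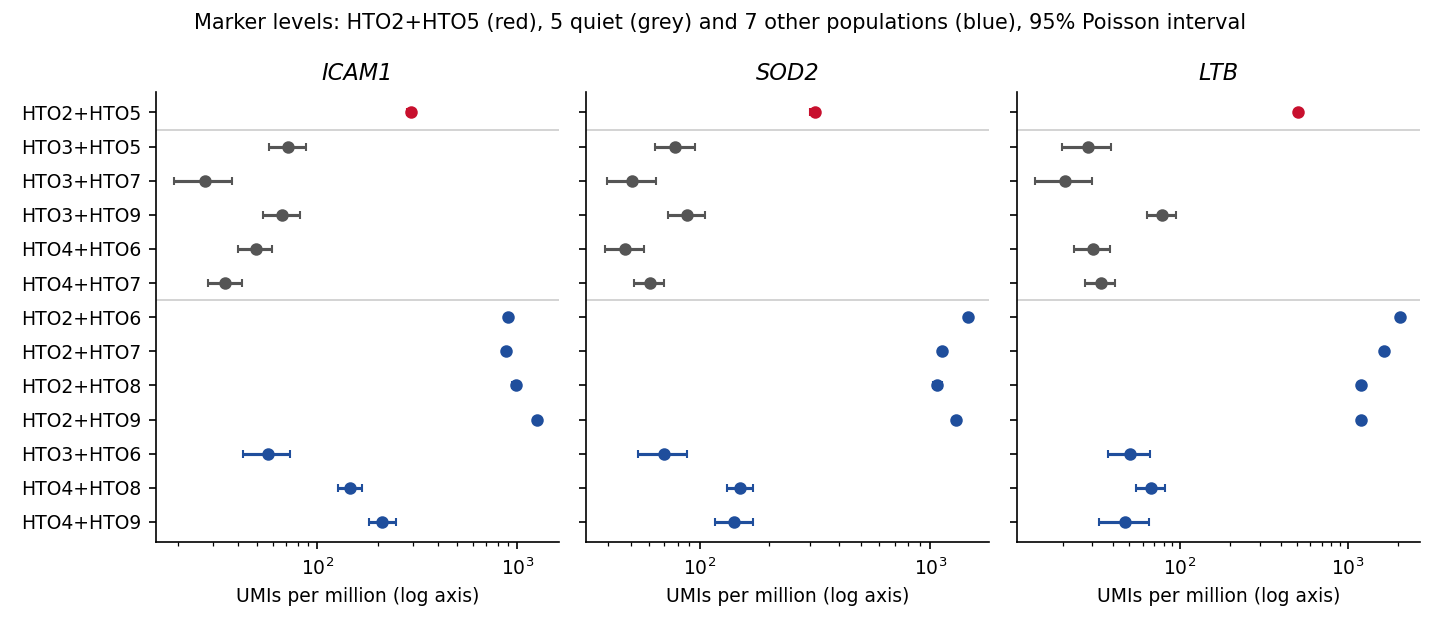
Level of ICAM1, SOD2 and LTB in CPM (log axis) in each of the 13 hashtag-pair populations, with exact 95% Poisson intervals. HTO2+HTO5 (red) lies between the 5 quiet populations (grey) and the 4 other HTO2 populations, at 294, 314 and 507.

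Over all genes the difference was narrow. Of 12152 genes with 30 UMIs or more over the 6 populations, 48 were 2-fold or more above the highest quiet population (0.395%), and 42 of these had a ratio interval above 1. In the opposite direction 8 genes were 2-fold or more below the lowest quiet population (0.0658%), none with an interval below 1, and their sums over the 6 populations were only 33 to 77 UMIs. HTO2+HTO5 lay above every quiet population, by any amount, for 1377 genes (11.3%), and below every quiet population for 1607. Under the 2-fold rule, 252 genes were higher in HTO2+HTO6 (2.11%) and 204 in HTO2+HTO7 (1.71%). At the edge of the rule, GBP3 was inside at a ratio of 2.01 and IFIH1 outside at 1.98. The highest quiet population exceeded the lowest by a median factor of 1.56 over genes. A stricter cell filter (1000 genes, 10% mitochondrial UMIs) left 69 HTO2+HTO5 cells and 14 to 36 cells in each quiet population, and 23 genes were then past 2-fold. Under it TNFAIP2 (ratio 1.96), CXCL10 (1.84), VCAM1 (1.76), TNIP1 (1.74), HLA-DRA (1.57), IL32 (1.48), CD74 (1.40), IKBKE (1.26), GBP3 (1.20), CHI3L2 (1.13), RELB (1.07) and MMP7 (0.95) were no longer past it, whereas ICAM1, SOD2, LTB, SAA1 and SERPINA3 were. With the second hashtag at least 10 times the third, GBP4 (1.37), MMP7 (1.81), GBP3 (1.94) and RELB (1.99) fell short of 2-fold, as RELB did without a cell filter (1.68) and CD74 (1.86) and HLA-DRA (1.95) did with cells thinned to 4000 UMIs.

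Of 19 acute-phase and defence genes tested, 7 were past 2-fold and 12 lay above every quiet population (0.395% and 11.3% over all genes). The median log2 ratio of the members to the quiet median was 0.71, against -0.02 over all genes. SERPINA3, which encodes the acute-phase protease inhibitor alpha-1-antichymotrypsin, stood at 198 CPM in HTO2+HTO5. The quiet populations had 21.4, 10.3, 16.4, 8.81 and 19.9, in the order HTO3+HTO5, HTO3+HTO7, HTO3+HTO9, HTO4+HTO6 and HTO4+HTO7, and the ratio to the highest was 9.23 (6.35 to 13.96). SAA1, an acute-phase serum amyloid A gene, stood at 612 against 152, 50.8, 201, 111 and 100, a ratio of 3.04 (2.69 to 3.46). Its near-identical copy SAA2 stood at 331 against 17.7 to 69.3, a ratio of 4.78 (3.88 to 5.96). Counts of these copies could be split between them by the upstream mapping, so each single value is uncertain, but both lay above every quiet population. The strong populations held 741 and 582 for SAA1, so that HTO2+HTO5 lay between them. This position includes all cells, and 5 of them held 17.02% of the SAA1 UMIs of HTO2+HTO5.

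Adhesion molecules and cytokines followed. VCAM1, an adhesion molecule for lymphocytes and monocytes, stood at 202 CPM against 65.8, 30.9, 48.4, 63.1 and 45 in the quiet populations (ratio 3.07, 2.46 to 3.87). IL32, a proinflammatory cytokine gene, stood at 206 against 66.6, 28.7, 87.9, 43.6 and 46.7 (ratio 2.34, 1.93 to 2.86). Of 27 chemokine, cytokine and adhesion genes tested, 7 were past 2-fold and 18 of 27 lay above every quiet population (0.395% and 11.3% over all genes). The summed level of that list was 1934 CPM, 2.57 times the highest quiet population (2.41 to 2.75), and the median log2 ratio of its members to the quiet median was 0.75. Both the sum and the 7 genes include ICAM1 (294 CPM) and LTB (507 CPM), on which the populations were selected. The size of the sum is therefore partly set by that selection.

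CCL5 needs separate mention, since its ratio of 17.8 (5.94 to 87.3) came from few cells. It had 125 UMIs in 17 of 507 cells, 1 cell alone held 100 of them, and without the highest 1% of cells of each population the ratio was 6.40 on 15 UMIs. TNFAIP6, a hyaluronan-binding protein gene, had 54 UMIs in 12 cells, with 83.3% of them in 5 cells, and its ratio of 13.9 (2.40 to 561, against 1 UMI) was 1.45 when each cell was weighted equally. CHI3L2, a chitinase-like protein gene with 58 UMIs, held 44.8% of them in its 5 highest cells. For LTB, ICAM1, SOD2 and SERPINA3 the 5 highest cells held 9.78%, 6.52%, 7.74% and 9.89%. For SAA1 and SAA2 they held more, 17.02% and 15.94%. A single cell had 182 of 3097 SAA1 UMIs, and a single cell had 78 of 1675 SAA2 UMIs. The levels of both genes, and their shares set against HTO2+HTO6 below, include these cells.

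NF-kB signalling genes divided. TNFAIP2, an induced gene of the exocyst family, stood at 576 CPM against 141, 126, 158, 165 and 172 in the quiet populations (ratio 3.35, 3.05 to 3.70). TNIP1, which encodes a ubiquitin-binding partner of the inhibitor A20, stood at 236 against 75.9 to 95.3 (ratio 2.48, 2.06 to 2.99). RELB, a subunit of the noncanonical NF-kB dimer, stood at 42.9 against 13.3 to 20.6 (2.08, 1.56 to 2.82), and IKBKE, an IKK-related kinase gene, at 37.8 against 11.8 to 18.5 (2.04, 1.44 to 2.94). With SOD2, on which the populations were selected, these were the 5 of 26 tested members past 2-fold (0.395% over all genes). The summed list, SOD2 included, stood at 1.78 times the highest quiet population (1.69 to 1.88). Of the 26, 12 lay above every quiet population (11.3% over all genes) and 2 below, and their median log2 ratio to the quiet median was 0.26.

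Several inhibitor and chemokine genes with high levels in the strong populations stood inside or near the quiet range, while others, such as TNIP1 and CXCL10, lay above it. NFKBIA, which encodes the inhibitor IkB-alpha, had 195 CPM in HTO2+HTO5 and 178, 150, 172, 159 and 221 in the quiet populations, whereas HTO2+HTO6 and HTO2+HTO7 had 1272 and 858. TNFAIP3, the gene of the inhibitor A20, had 10.3, inside the quiet range of 4.64 to 10.7, against 144 and 92.4 in the strong populations. CXCL1, a neutrophil chemokine gene, had 14.8 with quiet values from 6.03 to 33.5, and strong values of 181 and 101. All 3 lay inside the quiet range, with 1 quiet population setting its upper end. NFKBIA was 1.09 times the highest of the others without HTO4+HTO7, TNFAIP3 1.15 times without HTO3+HTO5 and CXCL1 1.21 times without HTO3+HTO9.

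CXCL8, another neutrophil chemokine gene, stood at 12.3 CPM in HTO2+HTO5, with a highest quiet value of 9.68 (ratio 1.27, 0.69 to 2.51) and 264 in HTO2+HTO6. CCL20 had 14 UMIs, 2.77 CPM, against 0 to 4.59 in the quiet populations and 126 in each strong population. CCL2, a monocyte chemokine gene, stood at 32.6 against 11.05 to 27.6, and at 850 in HTO2+HTO6. BIRC3, an apoptosis inhibitor gene, was slightly above the quiet range at 137 against 56.0 to 109 (ratio 1.25, 1.04 to 1.501). NFKB1 (50.4; highest quiet 48.6) and NFKB2 (29.1; highest quiet 22.2) had ratio intervals that included 1.

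**Figure D2:**
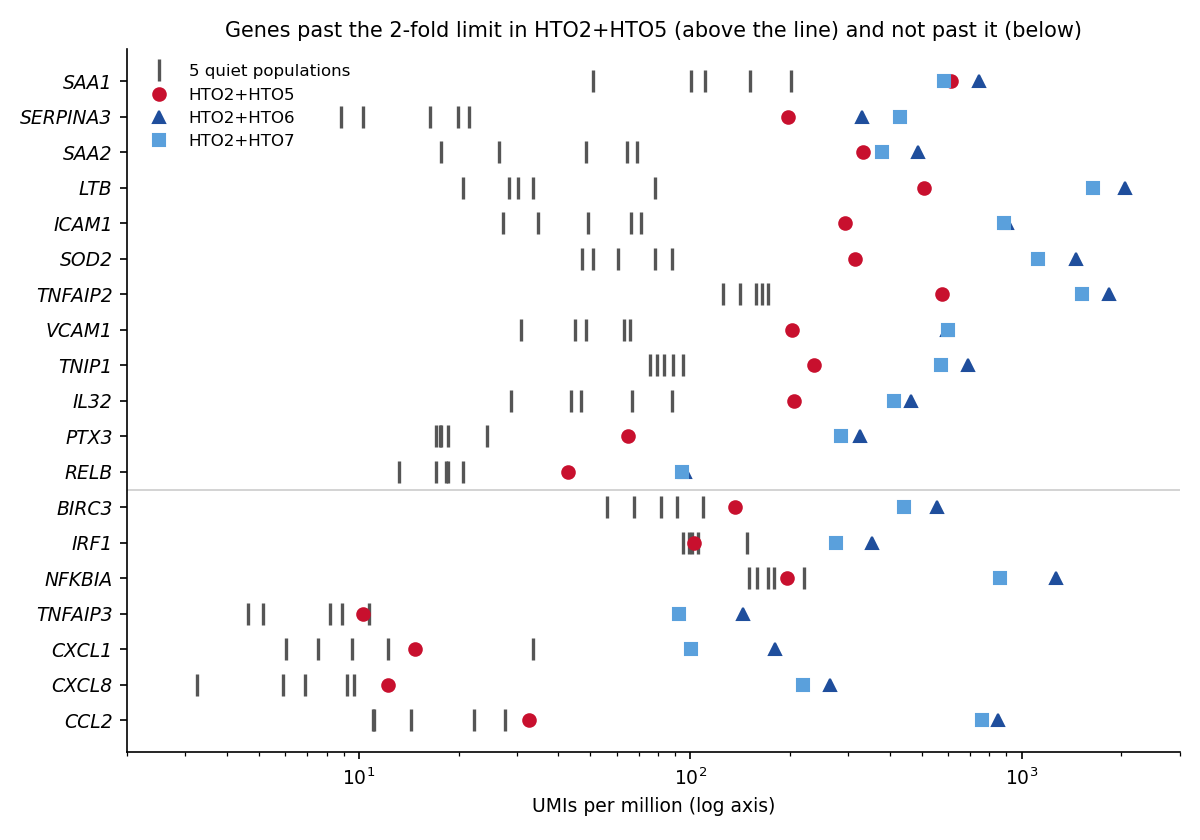
Level in CPM (log axis) of 12 genes past the 2-fold limit in HTO2+HTO5 (above the line) and 7 that were not (below), in HTO2+HTO5 (red circles), the 5 quiet populations (grey ticks) and the strong populations HTO2+HTO6 and HTO2+HTO7 (blue). SAA1 lies at the level of the strong populations, whereas NFKBIA, TNFAIP3 and IRF1 lie inside the quiet range.

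Set as a share of the difference between HTO2+HTO6 and the quiet median, the weak population did not stand at 1 common fraction. Over the 252 genes higher in HTO2+HTO6, HTO2+HTO5 stood at a median of 23.7% of that difference, with the 10th and 90th percentiles at 2.12% and 52.97%. It stood under 10% for 62 genes, at 50% or more for 33, and no higher than the highest quiet population for 68. Over the 204 genes higher in HTO2+HTO7 the median was 29.8%. The same quiet median enters both sides of this share. Among single genes the share was 79.5% for SAA1, 64.6% for SAA2, 58.1% for SERPINA3, 28.7% for ICAM1, 24.9% for TNFAIP2, 23.7% for LTB and 18.1% for SOD2. It was 11.6% for BIRC3, 3.1% for CXCL1, 2.2% for CCL2, 2.1% for NFKBIA and for CXCL8, 1.5% for TNFAIP3 and 0.6% for IRF1.

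By list, the median share was 15.01% for 17 NF-kB signalling genes, 19.4% for 23 chemokine, cytokine and adhesion genes, 24.8% for 10 acute-phase genes, 32.6% for 12 genes of the guanylate-binding protein (GBP) and CXCR3-ligand list, and 61.8% for 3 genes of major histocompatibility complex (MHC) class II. Within the first of these lists the share ran from -12.3% to 62.2%.

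Short stretches around matches to the NF-kB consensus (the kB site, searched by name on both strands) were read from the RefSeq promoter table on GRCh38.p14, to show that raised and unraised genes both hold such letters upstream of a start. The window was 250 bases before the start, and the genes were chosen after their values were seen. Only genes with a match are shown, and not all raised genes were in the promoter table. The search listed no match for ICAM1, SOD2, SAA1, SAA2, SERPINA3, TNFAIP2 or RELB. Each line gives 30 bases in the direction of the gene, with the match in capitals. The LTB and TNIP1 stretches precede the second of 2 starts in the table, and that of LTB lies inside the GENCODE span of the gene. LTB, VCAM1, TNIP1 and CXCL10 were past 2-fold in HTO2+HTO5, and NFKBIA, TNFAIP3, CXCL1, CCL20 and IRF1 were not.
LTB, chr6:31582492-31582521, minus strand: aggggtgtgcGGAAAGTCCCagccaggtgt
VCAM1, chr1:100719670-100719699, plus strand: tccccttgaaGGGATTTCCCtccgcctctg
TNIP1, chr5:151081057-151081086, minus strand: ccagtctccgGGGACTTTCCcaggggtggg
CXCL10, chr4:76023600-76023629, minus strand: tctgcaacatGGGACTTCCCcaggaacagc
NFKBIA, chr14:35404811-35404840, minus strand: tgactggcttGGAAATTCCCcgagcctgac
TNFAIP3, chr6:137867182-137867211, plus strand: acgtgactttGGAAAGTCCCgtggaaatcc
CXCL1, chr4:73869304-73869333, plus strand: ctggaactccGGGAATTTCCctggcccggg
CCL20, chr2:227813753-227813782, plus strand: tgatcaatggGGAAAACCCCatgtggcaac
IRF1, chr5:132490804-132490833, minus strand: ggccagggctGGGGAATCCCgctaagtgtt

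LTB and the first TNFAIP3 site carry the same 10 letters, although LTB was 6.49 times the highest quiet population and TNFAIP3 lay inside the quiet range. Of the 48 genes higher in HTO2+HTO5, 34 were in the table and 14 of these held a match (41.2%), against 1715 of 27305 genes in the whole table (6.28%). The letters TTCNNNGAA, the GAS motif known from the interferon gamma response, were found in 8 of the 34 (23.5%) against 8.09% of the whole table. The whole table was not limited to the genes compared here, and the populations were selected on ICAM1, SOD2, LTB and genes like them. Both differences are therefore descriptions. Among genes higher in HTO2+HTO6, a match was found for 11 of 44 (25.0%) where HTO2+HTO5 stood under 10% of the difference and for 37 of 130 (28.5%) where it stood at 10% or more. For TTCNNNGAA these shares were 9.09% and 16.2%. Both motifs were searched on both strands, and a match describes letters only and does not show that a factor binds there.

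Genes shared with the interferon response also lay mostly above the quiet populations. CXCL10, a CXCR3-ligand chemokine gene, stood at 77.9 CPM against 28.3, 21.4, 29.8, 23.2 and 18.9 (ratio 2.61, 1.89 to 3.72). GBP1, a guanylate-binding protein gene, stood at 75.3 against 17.7 to 31.6 (2.38, 1.89 to 3.03), and GBP4 and GBP3 were also past 2-fold. These were 4 of 33 tested members of the GBP and CXCR3-ligand list, and 27 of the 33 lay above every quiet population (0.395% and 11.3% over all genes). Their median log2 ratio to the quiet median was 0.79, and the summed list stood at 1.27 times the highest quiet population (1.23 to 1.302). IRF1, the interferon-responsive transcription factor gene, lay inside the quiet range at 103, and IDO1, a tryptophan-degrading enzyme gene, stood at 44.9 against a highest quiet value of 31.3 (1.43, 1.03 to 2.04).

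In the MHC class II list, CD74, the invariant chain, stood at 213 CPM against 75.04 to 104 (ratio 2.05, 1.72 to 2.47), and HLA-DRA at 32.0 against 5.89 to 14.2 (2.26, 1.40 to 3.86). Of 10 tested members, 2 were past 2-fold and 8 lay above every quiet population (0.395% and 11.3% over all genes). The median log2 ratio of the 10 to the quiet median was 0.87, and their sum stood at 1.77 times the highest quiet population (1.57 to 2.01). None of 18 MHC class I presentation genes was past 2-fold. Of these, 11 lay above every quiet population (11.3% over all genes), with a median log2 ratio of 0.39. B2M, their light chain, stood at 3875, inside the quiet range of 2823 to 3934. None of 40 interferon-stimulated genes was past 2-fold either, and their sum of 13110 lay inside the quiet range of 7790 to 13841, although 27 of 40 lay above every quiet population (11.3% over all genes) and their median log2 ratio to the quiet median was 0.78. IFI27 (4371; quiet 2448 to 5138) and ISG15 (1703; quiet 815 to 1899), both abundant type I interferon targets, lay inside the quiet range.

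None of 18 receptor and proximal signalling genes was past 2-fold. TNFRSF1A, the main TNF receptor gene of epithelial cells, stood at 67.6 CPM, just below the quiet range of 68.6 to 94.999. IFNGR1 and IFNGR2, the interferon gamma receptor genes, stood at 52.0 (highest quiet 41.2) and 88.8 (highest quiet 64.6). TNF itself had 1 UMI in HTO2+HTO5. In the acute-phase and defence list, MMP7, a matrix metalloproteinase gene, stood at 123 against 13.3 to 55.1. LCN2, the iron-carrier-binding lipocalin, stood at 945 against 599 to 884 (1.07, 1.01 to 1.13).

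Genes outside the immune lists mostly stayed near the quiet populations. Glycolytic and other hypoxia genes summed to 2276 CPM, below the quiet range of 2357 to 3217, and LDHA, lactate dehydrogenase A, stood at 845 against 915 to 1302. Mitotic genes summed to 1097 (quiet 983 to 2202), immediate-early genes to 1642 (1530 to 1902) and cholesterol synthesis genes to 423 (382 to 452), all inside the quiet range. None of these lists had a member past 2-fold in either direction. By any amount, 7 of 19 hypoxia genes and 5 of 20 mitotic genes lay below every quiet population, and none above. Of 18 immediate-early genes 2 lay below and 1 above, and of 14 cholesterol synthesis genes 2 lay below and 3 above. Over all 12152 genes 1607 lay below and 1377 above. The genes with the smallest ratios to the lowest quiet population included THSD7A at 20.8 against 35.0 to 55.1, F2R, the thrombin receptor, at 182 against 240 to 344, and ITGB4, the integrin beta 4 subunit, at 151 against 208 to 266. Their ratios were 0.59 (0.45 to 0.79), 0.76 (0.67 to 0.86) and 0.73 (0.63 to 0.84), and all 3 were lower still in HTO2+HTO6, at 10.9, 93.5 and 90.5.

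**Figure D3:**
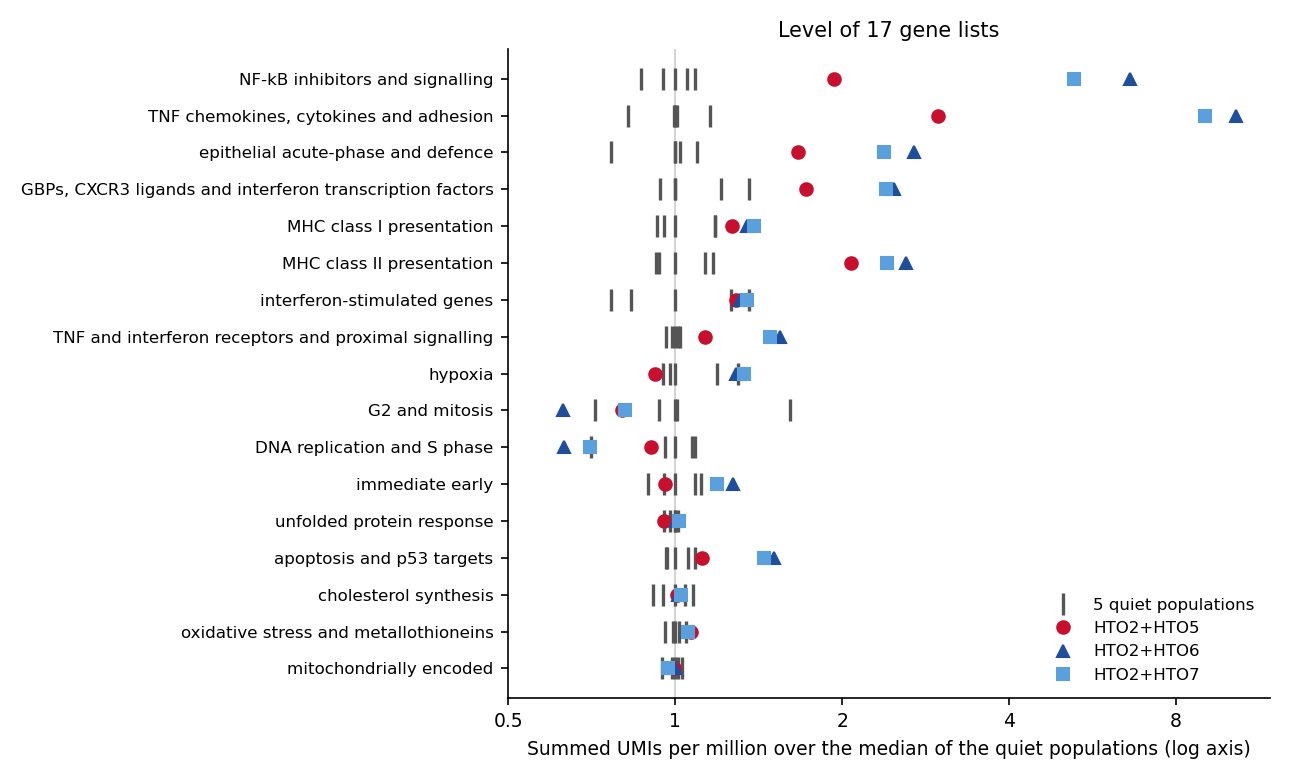
Summed level of 17 gene lists relative to the median of the quiet populations (log axis), in HTO2+HTO5 (red), HTO2+HTO6 and HTO2+HTO7 (blue) and each quiet population (grey ticks). HTO2+HTO5 stands apart from the quiet ticks for the first 4 lists and MHC class II, and inside or near them for the others.

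The spread over cells was examined after thinning each cell to 4000 UMIs, which kept 482 of 507 cells, 129 to 273 cells of each quiet population and 345 and 334 cells of HTO2+HTO6 and HTO2+HTO7. A TNF score was taken as the UMIs of the 70 members of the NF-kB signalling and the chemokine, cytokine and adhesion lists. The median HTO2+HTO5 cell had 15 such UMIs, the quiet medians were 6 in 4 populations and 7 in HTO4+HTO7, and the strong medians were 57 and 45. The 10th percentile of HTO2+HTO5 was 5 against 2 to 3 in the quiet populations, and the 90th was 29 against 10 to 13. The whole distribution was thus displaced, its low end little and its high end more. Because the score holds genes of the selection, this displacement is a description.

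Of the HTO2+HTO5 cells, 57.9% (exact 95% interval 53.3% to 62.3%) exceeded 12 UMIs, the 90th percentile of all quiet cells, against 3.7% to 12.4% in the single quiet populations. With ICAM1, SOD2 and LTB left out of the score and the percentile taken anew, 41.9% (37.5% to 46.5%) exceeded it. Of the remainder, 80 cells (16.6%, 13.4% to 20.2%) lay at or below the quiet median of 6. Only 3 of 482 cells (0.622%) reached the median of HTO2+HTO6, and the highest had 74 UMIs. The variance of the score was 6.61 times its mean, above 1, the value for an equal level in every cell. The quiet populations had 2.02 to 7.07, so HTO3+HTO9, where 2 cells reached the HTO2+HTO6 median, exceeded HTO2+HTO5 in this measure; HTO2+HTO6 had 12.2 and HTO2+HTO7 22.6. The highest 10% of the cells held 23.8% of the score's UMIs, within the 21.9% to 30.7% of the quiet populations.

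**Figure D4:**
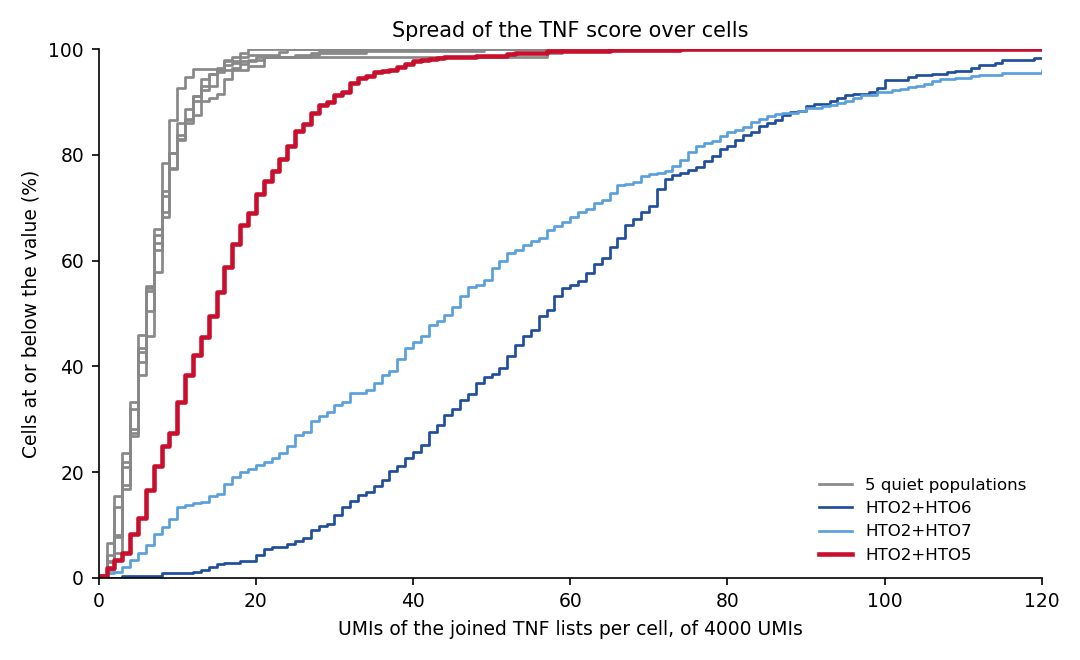
Cumulative share of cells (vertical axis, %) by TNF score, the UMIs of 70 genes per cell thinned to 4000 UMIs (horizontal axis, ending at 120), for HTO2+HTO5 (red), the 5 quiet populations (grey) and HTO2+HTO6 and HTO2+HTO7 (blue). The red curve is displaced as a whole, with a median of 15 against 6 to 7 in the quiet populations, and few of its cells reach the medians of 57 and 45. The 70 genes include ICAM1, SOD2 and LTB, on which the populations were selected.

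For each of the 3 markers more cells had a UMI, and each such cell had more of them. ICAM1 was detected in 55.0% of thinned HTO2+HTO5 cells (50.4% to 59.5%), against 8.2% to 25.6% in the quiet populations and 90.1% in HTO2+HTO6. Positive cells held a mean of 2.08 UMIs, against 1.14 to 1.21 in the quiet and 3.95 in HTO2+HTO6. SOD2 was detected in 54.4% of cells (49.8% to 58.9%), against 17.5% to 26.4% in the quiet populations and 95.1% in HTO2+HTO6. LTB was detected in 50.6% (46.1% to 55.2%), against 7.4% to 13.4% in the quiet populations and 80.0% in HTO2+HTO6. Positive cells held 2.40 SOD2 UMIs (quiet 1.03 to 1.78) and 4.34 LTB UMIs (quiet 1.22 to 2.74). For RELB the mean of 1.09 lay inside the quiet range of 1 to 1.10, although 16.8% of cells had a UMI against 5.86% to 7.41%. Before thinning, the shares in HTO2+HTO5 were 71.4% for ICAM1, 72.8% for SOD2 and 59.6% for LTB, and the highest quiet shares were 40.7%, 43.6% and 22.1%.

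Detection fell short of what an equal level in every cell would give, and by different amounts. For LTB an equal level would give 88.9% of cells with a UMI, and for SAA1 89.8% where 50.6% were found. For SERPINA3 the 2 values were 58.9% and 36.1%, for SOD2 72.9% and 54.4%, and for ICAM1 68.0% and 55.0%. For TNIP1 they were 58.9% and 55.8%, inside its interval of 51.3% to 60.3%, and for RELB 16.7% and 16.8%. The highest 10% of cells held 52.7% of LTB UMIs and 55.1% of SAA1 UMIs, against 34.3% of TNIP1 UMIs. The gap to an equal level was thus widest for SAA1 and LTB among these 7 genes, and small for TNIP1 and RELB. Uneven levels were not particular to HTO2+HTO5. The variance over the mean, 1 for an equal level, was 6.74 for LTB, 9.30 for SAA1 and 3.06 for SERPINA3. In HTO2+HTO6 it was 14.3, 6.99 and 2.82.

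**Figure D5:**
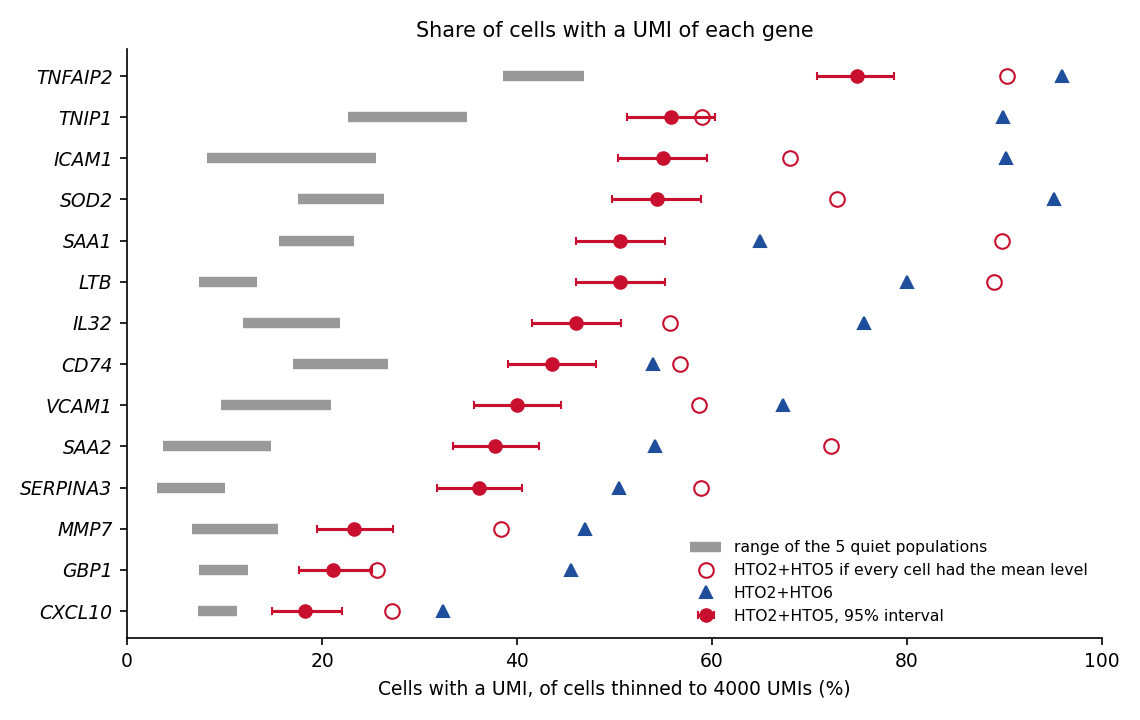
Share of thinned cells (%) with a UMI of 14 genes in HTO2+HTO5 (red, with exact 95% interval), the share that an equal level in every cell would give (open red circles), the range of the quiet populations (grey bars) and HTO2+HTO6 (blue triangles). The gap between open and filled circles is widest for SAA1 and LTB and within the interval for TNIP1.

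The 3 markers were found in the same cells more often than their separate shares give by multiplication. All 3 were detected in 107 of 482 HTO2+HTO5 cells (22.2%, product of shares 15.1%), 2 in 158 (32.8%), 1 in 134 (27.8%) and none in 83 (17.2%, product 10.1%). In the quiet populations 53.5% to 66.7% of cells had none and 0% to 0.775% had all 3. For HTO2+HTO6 0.870% had none and 69.9% all 3 (products 0.0971% and 68.6%). For HTO2+HTO7 8.98% had none and 52.1% all 3 (products 1.51% and 40.3%). An excess over the products was thus not particular to HTO2+HTO5. Cells with ICAM1 had SOD2 in 65.7% of cases (59.6% to 71.4%) and cells without it in 40.6% (34.0% to 47.4%). For LTB given ICAM1 the shares were 59.2% (53.1% to 65.2%) and 40.1% (33.5% to 46.9%). For SERPINA3 given SAA1 they were 48.0% (41.5% to 54.4%) and 23.9% (18.7% to 29.9%). The same shares in HTO2+HTO6 were 95.8% and 88.2% for SOD2 given ICAM1, and 80.1% and 79.4% for LTB given ICAM1. For SERPINA3 given SAA1 they were 56.7% and 38.8% there.

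Cells of HTO2+HTO5 with a high TNF score differed from low-scoring ones in other readouts. The 279 cells above 12 UMIs had a mean of 3.38 SAA1 UMIs, 1.90 SAA2 UMIs and 1.25 SERPINA3 UMIs per thinned cell, against 0.463, 0.213 and 0.300 in the 80 cells at or below 6. MHC class I presentation genes stood at 48.4 against 34.7 UMIs, interferon-stimulated genes at 63.7 against 40.3, and the GBP and CXCR3-ligand list at 15.4 against 9.11. Mitotic genes stood at 2.48 against 3.16 and hypoxia genes at 8.37 against 9.50. The high-scoring cells had a median of 15.4% mitochondrial UMIs against 14.2%, a median of 8717 UMIs against 9180 before thinning, and a median first hashtag count of 899 against 647.5. In the median high-scoring cell the third hashtag was 4.33% of the second, against 5.09%. The part of hashtag counts and mitochondrial share in this difference was not tested.

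The summed level of both TNF lists in HTO2+HTO5 was 2.09 times the highest quiet population over all cells. Since the populations were selected on genes of these lists, a higher level within groups of cells is no sign of stability, and the sizes are given as a description. The ratio was 1.87 at 0% to 12% mitochondrial UMIs, 2.09 at 12% to 16% and 2.26 at 16% to 20%. In cells with the third hashtag at most 5% of the second it was 2.097, and in the others 2.08. In cells under 8000 UMIs it was 2.21, and in deeper cells 2.05. LTB was 5.45 to 8.25 times and ICAM1 2.64 to 4.94 times the highest quiet population over these 7 groups of cells.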

How the data were processed

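The matrix deposited by the authors held whole-number UMI counts per gene and hashtag, not normalised, from 1 droplet-based single-cell 3' library and its hashtag library. Per the file headers the software was Cell Ranger 5.0.1. Version 2.1.1 stands in the submitters' processing notes, along with the build GRCh38, and no source used here names the gene annotation. Columns of other samples numbered 0.

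Pairs and cell filters followed the rule given in the results. No doublet caller was run; barcodes with a second hashtag under 4 times the third were left out. UMIs were summed over the cells of a population and scaled to 1000000 (CPM), with exact Poisson intervals, exact conditional intervals for the ratio of a pair of counts, and Clopper-Pearson intervals for shares of cells, all at 95%. Genes with 30 UMIs or more over the 6 populations were compared; a gene was called at 2-fold past the highest or lowest quiet population. For values per cell, each cell was drawn down to 4000 UMIs without replacement, and shallower cells were left out. With 1 library and populations not tied to tumours, no p-value was computed.

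The population, the gene lists and the tests were chosen with earlier results of these data known. Named genes were 28 fixed genes, the 15 with the largest ratio to the highest quiet population and the 10 with the smallest ratio to the lowest (50 UMIs or more, interval excluding 1), and the 4 members of each of 17 lists with most UMIs; genes named outside this rule (among them VCAM1, GBP3, GBP4, IKBKE, PTX3, MMP7, IFIH1 and TNF) were chosen after their values were seen. The single-gene results of some named genes are not reported here. GPX1 was the 1 listed gene not found among the features. The calculations were checked on simulated data. Calculations ran in numpy 2.4.6 and scipy 1.17.1 under Python 3.11.15, and plots in matplotlib 3.10.9.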

Additional observations from a re-analysis of the deposited data

Results flagged for a closer look

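Hashtags HTO1 and HTO10 take no part in the pairs and were not used in any comparison. In the 507 HTO2+HTO5 cells they had 9 and 33 counts, more than the 3 counts that a count of 0 allows, with at most 2 HTO10 counts in a cell.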

How the results depend on the processing

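HTO2+HTO5 stood above the highest quiet population for ICAM1, SOD2, LTB and both TNF lists under each alternative run for them. Since the populations were selected on genes of these lists, this direction is no sign of stability. The count of 48 higher genes was 23 with 1000 genes and 10% mitochondrial UMIs, 115 at 1.5-fold, 20 at 3-fold and 1219 with a minimum of 1 UMI, which counts every gene at 0 in all quiet populations. The count of 8 lower genes was 19 without a cell filter, 5 with the second hashtag 10 times the third, 49 at 1.5-fold, 1 at 3-fold, 0 at a minimum of 100 UMIs, 73 at 1 UMI, and 13, 13 and 14 without HTO3+HTO5, HTO3+HTO7 and HTO3+HTO9. The ratio of the joined TNF lists, 2.09, was 2.00 with the stricter cell filter, 2.19 without one, 1.97 with the stricter hashtag ratio, 2.25 without HTO3+HTO9 and 1.34 as a median of log2(CPM + 1) over members. The median share of the rise was 18.6% for HTO2+HTO6 and 19.1% for HTO2+HTO7 with the stricter cell filter. The share of cells above the quiet 90th percentile, 57.9%, was 52.5% with that filter, 48.4% at 2000 UMIs and 41.9% without ICAM1, SOD2 and LTB. Of the list ratios, and the gene ratios kept above 1, whose 95% interval excluded 1, these crossed 1, the level of the highest quiet population. With the stricter cell filter they were interferon-stimulated genes (1.04), receptors (0.927), BID (0.789), C1S (0.783), GPRIN1 (0.766), IFNGR1 (0.608), JAK1 (0.993), KYNU (0.851), MMP7 (0.950), MT2A (0.929), SAA4 (0.391) and XDH (0.377). Without a cell filter this was MHC class I (0.999), and with the stricter hashtag ratio LCN2 (0.967). Interferon-stimulated genes were at 1.02 without HTO4+HTO7 and 1.26 as a median over members, and receptors at 0.981 as a median. Genes of the results with an interval that included 1 also crossed it with the stricter cell filter, at 0.643 for CCL2, 0.274 for CXCL8, 0.742 for NFKB1 and 0.723 for NFKB2. Of genes below the highest quiet population, TNFAIP3 (1.17) and CCL20 (1.02) lay above it without a cell filter, B2M (1.08) and ISG15 (1.05) with the stricter one, CCL20 (1.24) without HTO3+HTO5 and B2M (1.02) and ISG15 (1.11) without HTO4+HTO7, and B2M (1.01) with median-of-ratios scaling. The cause was not tested, beyond that the stricter filter left 69 HTO2+HTO5 cells and 14 to 36 per quiet population. Removing the highest 1% of cells per gene, chosen after seeing the data, gave 58 higher genes. No paired analysis was possible because each population is 1 sample of 1 library with no replicate number. Genes under 30 UMIs were not compared, and the 8 lower genes, at 33 to 77 UMIs over the 6 populations, had intervals that included 1.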
